A study of Bos taurus with 8 samples.

Results

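The 7 cholesterol synthesis genes described here are INSIG1 and the enzyme genes HMGCS1, IDI1, FDPS, FDFT1, SQLE and LSS, chosen for a lower level on a high-concentrate diet in earlier results from the same arrays. Cholesterol is built from acetyl-CoA through mevalonate, isoprene units and squalene, and keratinized stratified epithelia, such as that of the rumen, make sterols for their membranes and their barrier. The transcription factors called SREBPs drive the genes of the pathway when sterols are scarce, and INSIG1 is the protein of the endoplasmic reticulum that holds the SREBPs and their escort SCAP in place when sterols are plentiful. The INSIG1 gene is itself switched on by the SREBPs and so is widely read as a gauge of their activity.

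A probe was given to a gene where the RefSeq accession that the scanner software lists for it belongs to that gene. By this rule 4 of the 7 genes had a probe, namely INSIG1 (NM_001077909), FDPS (NM_177497), FDFT1 (NM_001013004) and SQLE (NM_001098061), each with 1 probe, out of 7788 genes with a probe. No probe carried an accession of the other 3, HMGCS1 (which makes HMG-CoA for the pathway), IDI1 (which isomerizes the isoprene unit) and LSS (which closes squalene epoxide to lanosterol), so these were not analysed here. All 4 measured genes were well above background on all 8 arrays by the test of the scanner software. Their log2 signals lay between 10.26 and 13.75, whereas the dimmest probe counted as above background had 2.02 to 2.77, depending on the array.

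The samples were rumen papillae of 4 lactating, ruminally cannulated female Holstein cattle in a crossover, each cow fed the low-concentrate diet (LC, 40% concentrate of dry matter) in one period and the high-concentrate diet (HC, 70%) in the other. Papillae were taken on day 21 of a period, 4 h after the morning feeding. Cows 1 and 2 were fed LC first and cows 3 and 4 HC first, which gave 4 arrays per diet, with 2 from each period. Before the trial all 4 cows had been on a ration low in concentrate, and there was no untreated group. Each RNA sample was hybridized alone, in a single colour, to an Agilent bovine array, with 4 arrays on a slide and 21475 probes on an array, of which 76.9 to 81.2% exceeded background.

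Period and slide were the same split of the arrays, so they cannot be told apart. Each cow lay on the same place of both slides, cows 1 to 4 on places 1 to 4. Neither a single cow nor a cow pair can therefore be told apart from place. In the authors' own normalized table the values of cows 1 and 2 are exchanged on both diets, with gaps to the scanner values of up to 0.58 (log2) for the 4 genes as labelled and 0.02 after the exchange. The values below follow the scanner output, so which of these animals is cow 1 and which cow 2 is uncertain, while the diet, period and cow-pair differences are not affected. Of 12 listed markers of stratified epithelium 8 had a probe, and 7 of these passed the background test on each of the 8 arrays, with KRT14 at 17.69 to 18.13 and KRT15 at 16.80 to 17.04 (log2), while the TP63 probe was so on no array. Transcripts of fibroblasts and smooth muscle were measured too (6 of 6 and 5 of 5 markers), so a papilla sample is a mixture. In such bulk RNA fewer cells of a type and less RNA per cell cannot be told apart.

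Of the 4 genes, INSIG1 stood lowest on HC relative to LC. The INSIG1 log2 signals on LC were 11.05, 10.92, 10.54 and 11.17 in cows 1 to 4. On HC they were 10.41, 10.33, 10.26 and 10.38 in the same order. Every HC array lay below every LC array, so the groups did not overlap, and the HC arrays lay close together whereas the LC arrays were spread out, with cow 3 the lowest on both diets.

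The INSIG1 mean was 10.92 ± 0.28 (SD, n = 4) on LC and 10.35 ± 0.06 (SD, n = 4) on HC. The log2 difference, HC minus LC, was -0.57 (standard error 0.15), a 1.49-fold lower signal. This standard error, like those of the diet differences below, comes from a fit with no cow term. It therefore holds spread between cows and is not the precision of the difference within cows. Within the cows the INSIG1 difference was -0.64, -0.59, -0.27 and -0.79 in cows 1 to 4 (SD 0.22). With 1 array left out, the mean difference ran from -0.41 without the LC array of cow 4 to -0.73 without that of cow 3. Leaving out 1 array splits the pair of a cow in a fit with no cow term. Such shifts therefore hold differences between cows too, here and for the genes below. Cows 1 and 2 were on HC in period 2 and cows 3 and 4 in period 1. A difference within a single cow therefore holds diet and period together, here and for the genes below. Among all 21475 probes, 0.68% had every HC array below every LC array, and 1.19% had a fold change of at least 1.5 to the lower side. Of the 4 genes 0 reached that fold, with INSIG1 just under it at 1.49-fold, taken from the means of the log2 signals. The study lists INSIG1 as changed by a rule of at least 1.5-fold, and the reason for this gap was not tested. The genes were chosen by this contrast, and INSIG1 is also on the study's own list of changed genes, which was drawn up from these arrays. The diet differences of the 4 genes are therefore a description with no test.

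**Figure D1:**
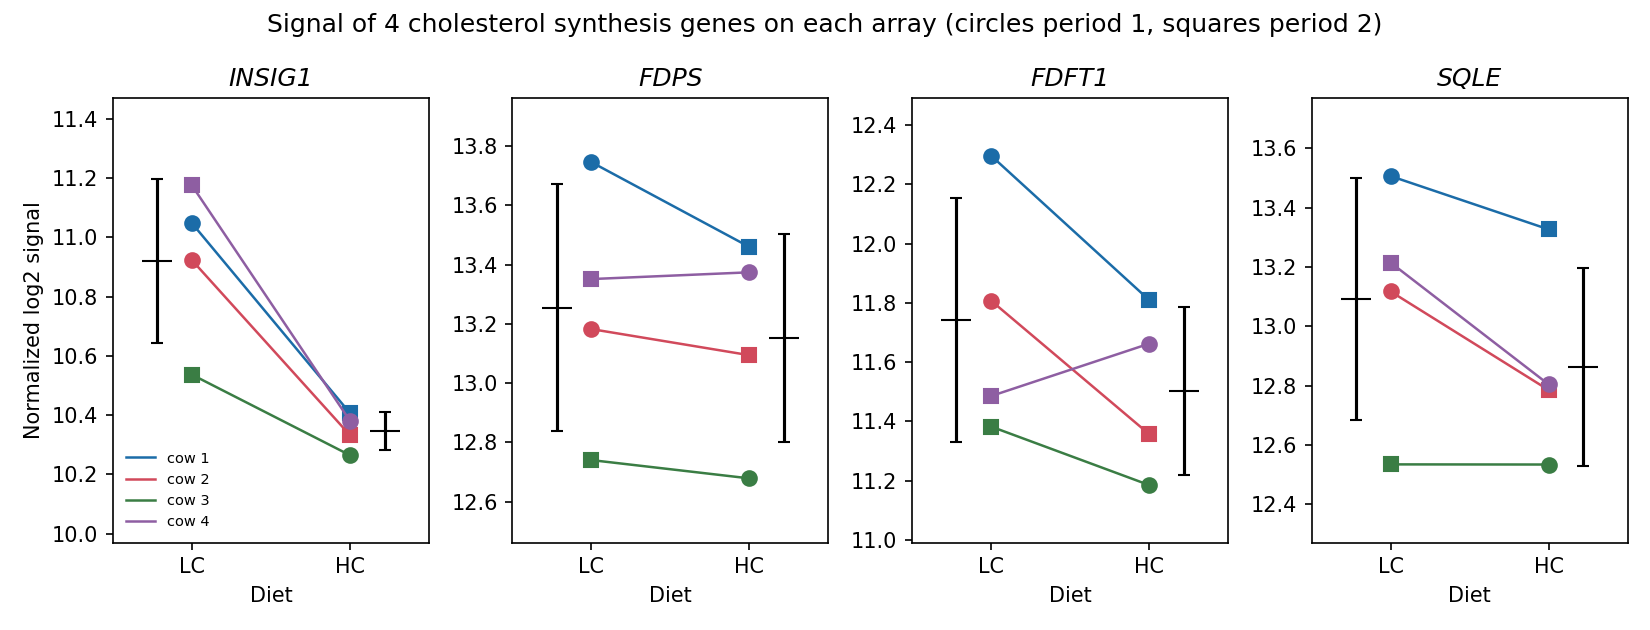
Normalized log2 signal (vertical axis) of INSIG1, FDPS, FDFT1 and SQLE on the LC and HC diets. Each line joins the arrays of 1 cow, circles are period 1 and squares period 2, and the bars beside the points are the mean ± SD of 4 arrays. The vertical axes have the same span but different starting points. The HC points of INSIG1 all lie below its LC points, whereas the diets overlap for the other 3 genes.

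FDPS makes farnesyl diphosphate, the branch point from which sterols and the prenyl groups of proteins are made. The FDPS log2 signals on LC were 13.75, 13.18, 12.74 and 13.35 in cows 1 to 4, and on HC 13.46, 13.09, 12.68 and 13.37. The cows kept the same order on both diets, with cow 1 the highest and cow 3 the lowest, and the groups overlapped almost fully. The means were 13.25 ± 0.42 (SD, n = 4) on LC and 13.15 ± 0.35 (SD, n = 4) on HC, a log2 difference of -0.10 (standard error 0.24). The FDPS difference was 0.04 without the LC array of cow 1, 0.05 without that of cow 4 and 0.07 without the HC array of cow 3. These shifts hold the differences between cows as well, so they do not show that its sign rested on single arrays. Within the cows the FDPS difference was -0.29, -0.09, -0.06 and 0.02 in cows 1 to 4 (SD 0.13).

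FDFT1, squalene synthase, joins a pair of farnesyl diphosphates in the step that commits the carbon to sterols. The FDFT1 log2 signals on LC were 12.30, 11.81, 11.38 and 11.49 in cows 1 to 4, and on HC 11.81, 11.36, 11.19 and 11.66. Cow 1 was highest on both diets and cow 3 was lowest on both, and only cow 4, which was on HC in period 1, was higher on HC. The FDFT1 difference within the cows was -0.49, -0.45, -0.20 and 0.18. The means were 11.74 ± 0.41 (SD, n = 4) on LC and 11.50 ± 0.28 (SD, n = 4) on HC, a log2 difference of -0.24 (standard error 0.18), with bounds of -0.36 and -0.12 when single arrays were omitted.

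SQLE, squalene epoxidase, is the first oxygen-requiring enzyme of the pathway and one of its rate-limiting steps. The SQLE log2 signals on LC were 13.51, 13.12, 12.53 and 13.22 in cows 1 to 4, and on HC 13.33, 12.79, 12.53 and 12.80. Cows 1, 2 and 4 were lower on HC and cow 3 was at the same level on both diets, with a difference of -0.00048. The means were 13.09 ± 0.41 (SD, n = 4) on LC and 12.86 ± 0.33 (SD, n = 4) on HC. The log2 difference was -0.23 (standard error 0.21), and it shrank to -0.06 without the LC array of cow 4 and grew to -0.40 without that of cow 3.

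Over all 21475 probes the median difference was -4.48e-05, a value that quantile normalization keeps near 0. Set side by side, the differences of the 4 genes, which were chosen for a lower level on HC, had a median of -0.24. INSIG1 carried 50.02% of their sum, FDFT1 20.9% and SQLE 20.1%, with the rest from FDPS. In each of the 4 cows INSIG1 had the largest fall of the 4 genes. For the 3 enzyme genes, 10 of the 12 within-cow differences were below 0, one of them the -0.00048 of SQLE in cow 3, and the exceptions were FDPS and FDFT1 in cow 4. In cows 1 and 2 all 4 genes were lower on HC, in cow 3 all but SQLE, which was level, and in cow 4 INSIG1 and SQLE. With the -0.00048 of SQLE in cow 3 counted as lower, INSIG1 and SQLE were lower in 4 of 4 cows, as were 4.98% of all probes.

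**Figure D2:**
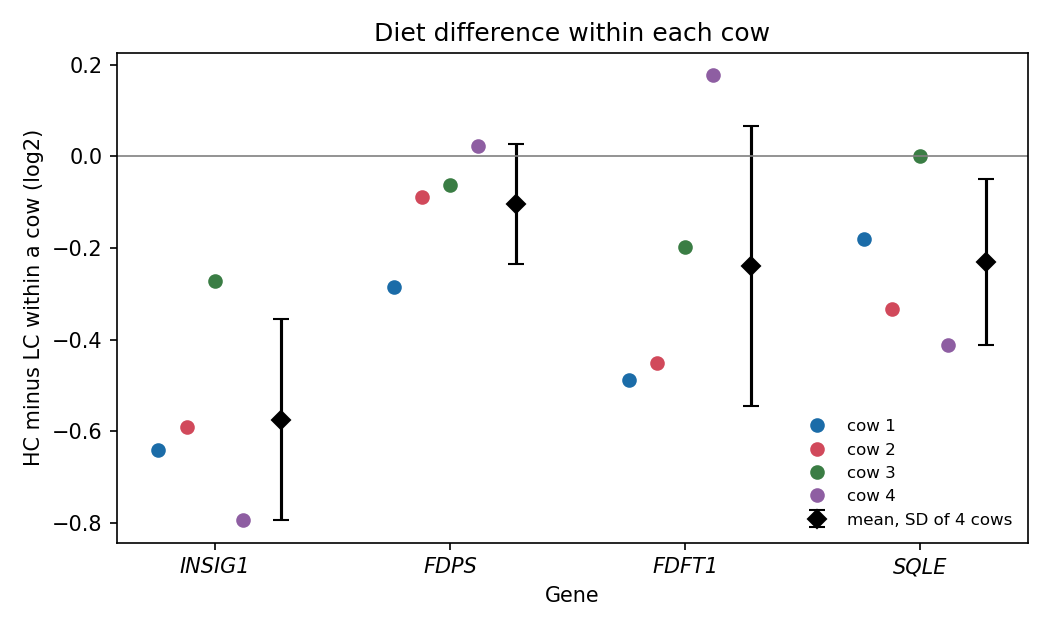
Difference in log2 signal between HC and LC within each cow (vertical axis) for the 4 genes. Coloured points are cows and the black diamonds with bars are the mean ± SD of 4 cows. INSIG1 lies between -0.79 and -0.27, and FDPS and FDFT1 each have 1 cow, cow 4, above 0.

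Each probe had 2 spots on an array, and their median gap over the 8 arrays was 0.09 (log2) for INSIG1, 0.17 for FDPS, 0.12 for FDFT1 and 0.06 for SQLE, with a largest gap of 0.33. These gaps hold the spread within an array and leave out that of sampling, labelling and hybridization.

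Marker lists of the cell types in a papilla overlapped between the diets, and their part in the values above was not tested. As the mean log2 level of a list, leukocyte markers (5 of 8 measured on all arrays) were 8.96 to 9.15 on LC and 8.93 to 9.41 on HC. Fibroblast markers (6 of 6) were 10.76 to 11.18 on LC and 10.76 to 11.28 on HC. Epithelial markers (7 of 12) were 14.96 to 15.49 on LC and 15.01 to 15.62 on HC. Within the epithelial list the desmosomal cadherin DSG1, a marker of differentiated layers, was uneven. The DSG1 log2 signals were 12.21, 10.03, 10.01 and 12.26 on LC and 9.64, 9.13, 10.27 and 12.92 on HC in cows 1 to 4. The diets overlapped, and the mean DSG1 difference of -0.64 came mostly from cow 1. Of the adipocyte markers PLIN1 was measured on all arrays, at 3.11 to 4.29, and CIDEC on none. The summed signals of these lists overlapped between the diets as well.

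The period of sampling was not used to choose the genes, and it was tested in the same limma fit over all probes. The log2 difference, period 2 minus period 1, was -0.04 for INSIG1 (standard error 0.15, 95% interval -0.41 to 0.33) and -0.08 for FDPS (0.24, -0.67 to 0.50). It was -0.23 for FDFT1 (0.18, -0.67 to 0.21) and -0.03 for SQLE (0.21, -0.54 to 0.49). The unadjusted p values from limma were 0.254 to 0.909 and the exact two-sided permutation p values 0.429 to 0.971, where 0.0286 is the smallest that 4 arrays against 4 allow. A fold change of at least 1.5 with an unadjusted p under 0.05 was found for 0 of the 4 genes and for 3.86% of all probes. Adjusted p values were 0.697 to 0.981, with 0 of the 4 genes passing, against 0.0419% of all probes. A p of this size does not show that the periods were alike. This fit and the permutation treat the arrays as independent, although each cow was sampled in both periods. With cow as a block the 95% intervals narrowed to -0.36 to 0.28 for INSIG1, -0.32 to 0.15 for FDPS, -0.50 to 0.05 for FDFT1 and -0.32 to 0.27 for SQLE. The limma p in the blocked fit was 0.0839 for FDFT1 and 0.393 to 0.828 for the other 3 genes, before adjustment. Over all probes, 71.7% of the period calls were lower in period 2, and 92.7% with scaling by the 75th percentile.

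The order of the diet and period means differed between INSIG1 and the enzymes. For INSIG1 (n = 2 arrays each) they ran from 10.99 (LC, period 1) and 10.86 (LC, period 2) to 10.37 (HC, period 2) and 10.32 (HC, period 1). Both LC means were thus above both HC means, and neighbours on the same diet differed by less than the spread of the LC arrays. For SQLE they ran from 13.31 (LC, period 1) and 13.06 (HC, period 2) to 12.87 (LC, period 2) and 12.67 (HC, period 1), so that both means of cows 1 and 2 came first. FDPS had the same order, at 13.46, 13.28, 13.05 and 13.03, and FDFT1 too, at 12.05, 11.58, 11.43 and 11.42. Neighbours in these orders overlapped in their arrays.

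Cows 1 and 2 against cows 3 and 4 is the interaction of diet and period in the study's model. This difference was 0.41 for SQLE (standard error 0.21, 95% interval -0.10 to 0.93), 0.39 for FDFT1 (0.18, -0.05 to 0.83), 0.33 for FDPS (0.24, -0.25 to 0.92) and 0.09 for INSIG1 (0.15, -0.28 to 0.46). The unadjusted p from limma was 0.0749 for FDFT1, 0.0986 for SQLE, 0.213 for FDPS and 0.587 for INSIG1, and adjusted p values over all probes were 0.531 to 0.862. Of the 4 genes 0 passed the fold and p thresholds, against 2.93% of all probes, and 0 passed after adjustment, against 0.0373%. This fit treats both arrays of a cow as independent, although the contrast lies between cows. With the mean of each cow in place of its arrays, the unadjusted limma p was 0.146 for FDFT1 and 0.175 for SQLE. It was 0.320 for FDPS and 0.632 for INSIG1.

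**Figure D3:**
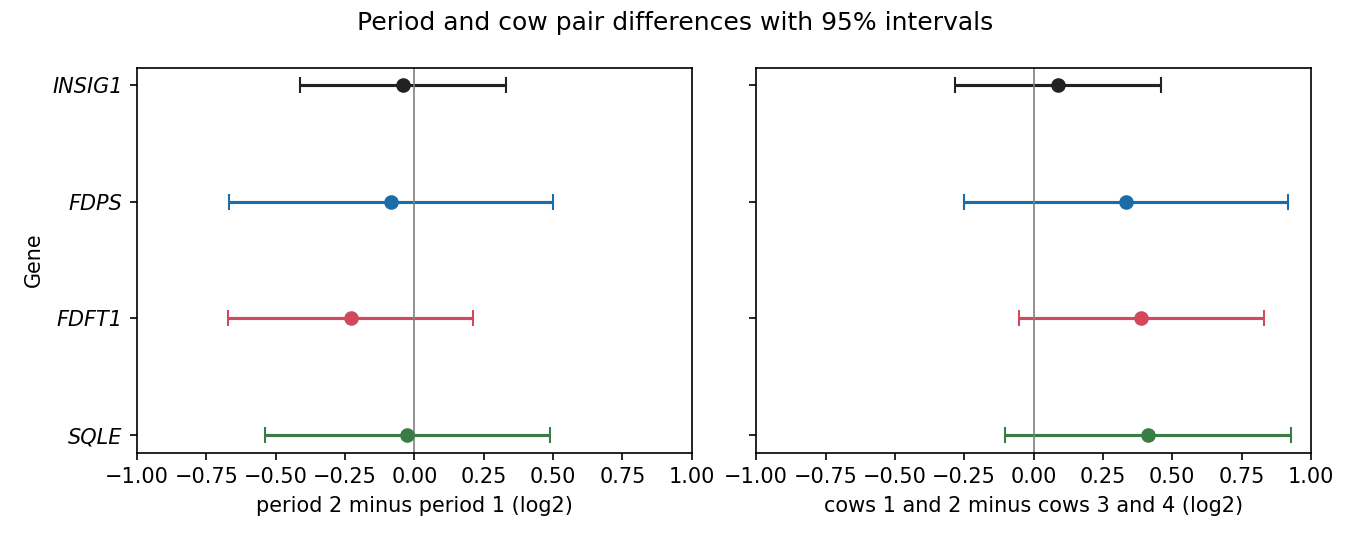
Differences (horizontal axes, log2) between the periods (left) and between the cow pairs (right) for the 4 genes. Points are the limma estimate and bars the 95% interval, from the fit that treats the arrays as independent. All 8 intervals include 0, and in the right panel the 3 enzyme genes lie at 0.33 to 0.41 and INSIG1 at 0.09.

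Among the cows, the means of the enzyme genes spanned more than their diet differences. Each cow lay on the same place of both slides, so cow and place cannot be told apart in these values. Averaged over both diets, SQLE was 13.42, 12.95, 12.53 and 13.01 in cows 1 to 4, a range of 0.88. FDPS was 13.60, 13.14, 12.71 and 13.36, a range of 0.89, and FDFT1 was 12.05, 11.58, 11.28 and 11.57, a range of 0.77. For all 3, cow 1 was the highest and cow 3 the lowest. INSIG1 had a smaller range of 0.38, from 10.40 in cow 3 to 10.78 in cow 4. A moderated F test of the 4 cows beside diet and period, chosen after these values were seen, gave an unadjusted p of 0.00625 for FDPS, 0.0174 for SQLE, 0.022 for FDFT1 and 0.254 for INSIG1. The limma adjusted p values were 0.183 to 0.534, so 0 of the 4 genes passed after adjustment, against 0.158% of all probes, and 16.3% of all probes had an unadjusted p under 0.05. Whether INSIG1 differed from the enzymes in this was not tested.

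**Figure D4:**
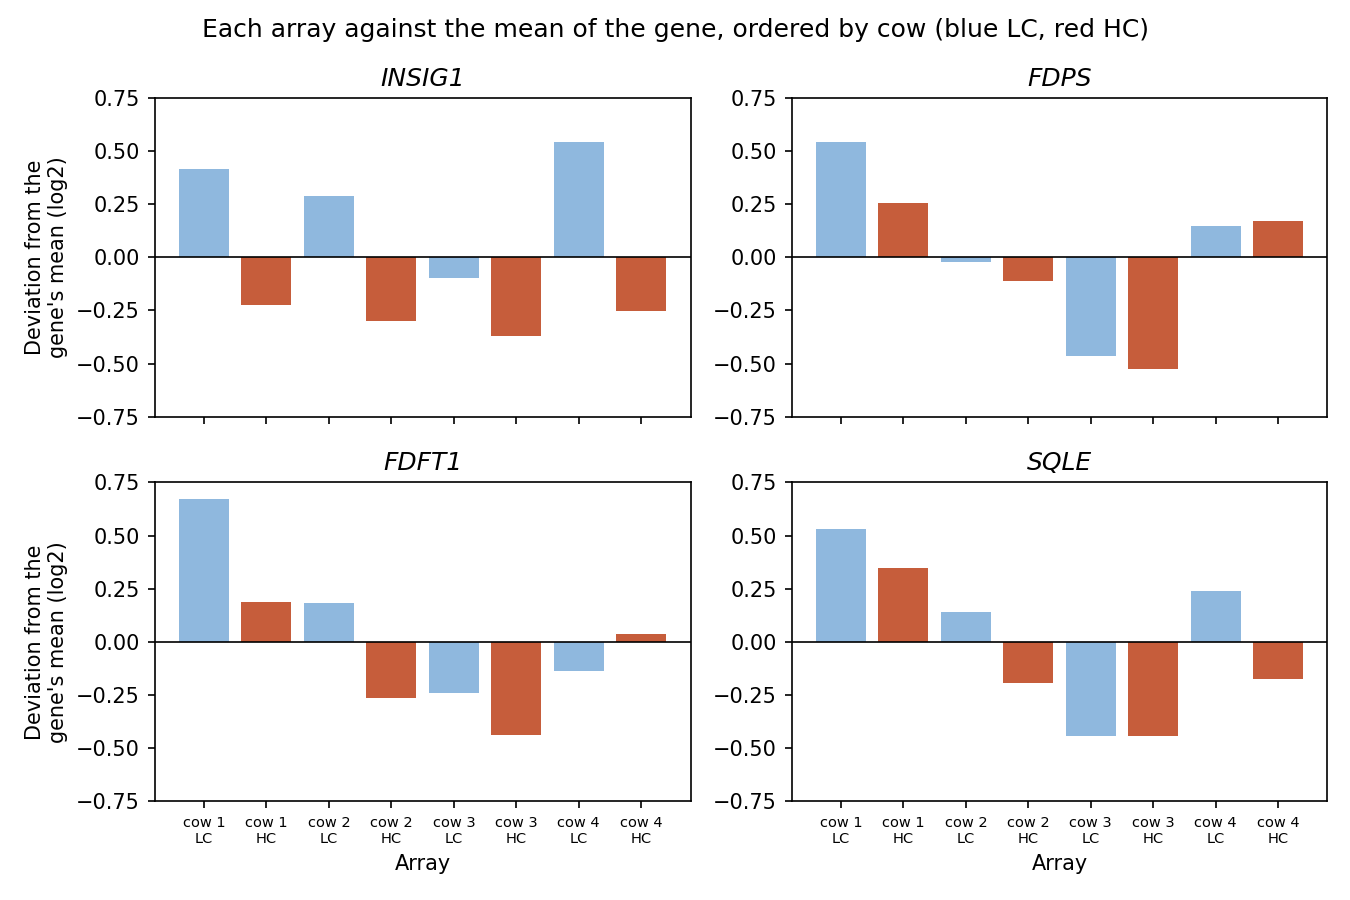
Deviation of each array from the mean of the gene over 8 arrays (vertical axis, log2), with the arrays ordered by cow along the horizontal axis and LC in blue and HC in red. For INSIG1 the LC value is above the HC value in each cow, whereas FDPS, FDFT1 and SQLE are above their means on both arrays of cow 1 and below them on both arrays of cow 3.

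The rest of the pathway was followed with a list of 33 other genes of sterol synthesis, sensing, uptake and export. Of these 21 had a probe, all well above background on all 8 arrays, and 12 had none, among them SREBF2 and INSIG2. On HC 13 were lower and 8 higher than on LC, with a median log2 difference of -0.05 and a range of -0.36 to 0.14. A fold change of at least 1.5 with an unadjusted p under 0.05 in limma was found for 0 of the 21 in either direction, against 0.494% of all probes higher and 0.428% lower (0.922% in all). No probe on the arrays passed after adjustment, where the smallest p was 0.412. With an unadjusted p under 0.05 alone there was 1 gene, CYP51A1, which was lower on HC, against 1.8% of all probes lower and 1.85% higher. The 4 genes above were taken out of this pathway with their values known, so the 21 are what was left.

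Among the mevalonate steps, MVD, which makes isopentenyl diphosphate, was lower on HC in 4 of 4 cows, with differences of -0.46 to -0.0040, and had a mean difference of -0.21 (standard error 0.11) and an unadjusted limma p of 0.102. MVK and PMVK, the kinases before it, had differences of -0.08 and 0.11. MVK too was lower on HC in 4 of 4 cows, as were 4.98% of all probes. GGPS1, which makes the longer geranylgeranyl diphosphate, was higher on HC in 4 of 4 cows, with a mean difference of 0.08 (standard error 0.08) and an unadjusted limma p of 0.356. The share of all probes higher on HC in 4 of 4 cows was not counted.

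After squalene, CYP51A1, the lanosterol demethylase, was 9.44 ± 0.31 (SD, n = 4) on LC and 9.08 ± 0.24 (SD, n = 4) on HC. Its log2 signals were 9.69, 9.68, 9.05 and 9.35 on LC and 9.14, 8.73, 9.19 and 9.26 on HC in cows 1 to 4, so the diets overlapped. For CYP51A1 the difference was -0.36 (standard error 0.13), and limma gave an unadjusted p of 0.0296 and an adjusted p of 1.00. Within the cows the CYP51A1 difference was -0.55 and -0.96 in cows 1 and 2, on HC in period 2, and 0.14 and -0.09 in cows 3 and 4, on HC in period 1. The period difference was of the same size as the diet difference at -0.39 (unadjusted p = 0.022 in limma). The split between the cow pairs therefore holds the period difference and cannot be read as a diet response of cows 1 and 2 alone. Between the periods CYP51A1 was the 1 gene of the 21 that was lower in period 2 at an unadjusted p under 0.05, against 7.25% of all probes. MSMO1, a sterol methyl oxidase, was 13.40 ± 0.21 (SD, n = 4) on LC and 13.14 ± 0.13 (SD, n = 4) on HC. It was lower on HC in 4 of 4 cows, as were 4.98% of all probes, with differences of -0.41 to -0.11. Its mean difference was -0.26 (standard error 0.12), with a limma p of 0.0725 before adjustment, and with cow as a block the MSMO1 p was 0.0298 (0.843 after adjustment). The highest difference of the 21 genes was that of LBR, a sterol reductase of the nuclear envelope, which was higher on HC in 4 of 4 cows with a mean difference of 0.14 (standard error 0.15, unadjusted limma p of 0.358). TM7SF2, which catalyses the same step, had a difference of -0.10. The differences of DHCR7 (0.05), EBP (0.06), SC5D (0.08) and HSD17B7 (0.04) were each below their standard errors of 0.09 to 0.17. Between the cow pairs, MVD was higher in cows 1 and 2 at an unadjusted p under 0.05 from limma and HSD17B7 was lower, as were 5% and 5.16% of all probes in these directions.

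Of the 6 genes listed under sterol sensing, which leave out INSIG1, 4 had a probe, and these were nearly level. SREBF2 and INSIG2 were not measured. SREBF1, which encodes an SREBP, had a difference of -0.05, SCAP, the escort protein, -0.01, and MBTPS1 and MBTPS2, the proteases that release the SREBPs, 0.03 and -0.01. The standard errors of these 4 were 0.08 to 0.13, larger than each difference. Of the uptake and transport genes, NR1H3, a nuclear receptor for oxysterols, had -0.10, MYLIP, a ubiquitin ligase, -0.13, and NPC2, a lysosomal sterol carrier, -0.06. Their standard errors were 0.11, 0.14 and 0.10, again larger than each difference. NPC2 was lower on HC in 4 of 4 cows, as were 4.98% of all probes.

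**Figure D5:**
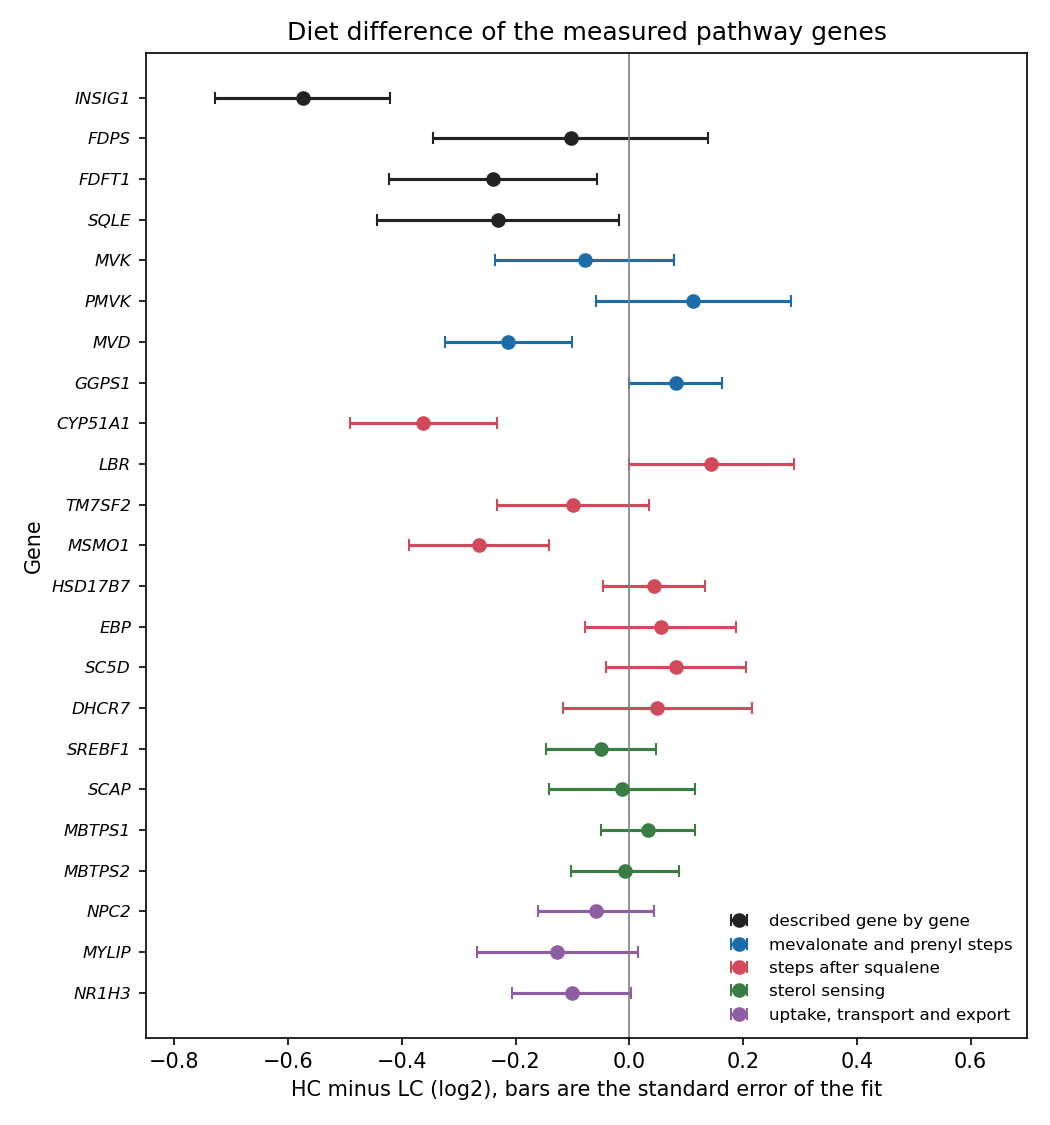
Difference in log2 signal between HC and LC (horizontal axis) for the 4 genes described one by one, in black, and 19 of the 21 other measured genes of the pathway, coloured by role. Points are limma estimates and bars their standard errors. INSIG1 lies at -0.57, and the next lowest gene plotted is CYP51A1 at -0.36.

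Across the 8 arrays, among the genes outside these lists whose log2 profile was most like the mean profile of the 4 genes were SCD (stearoyl-CoA desaturase) with a Pearson r of 0.96 and LBH with 0.95. Also among them were TK1, SLC25A15, AACS (acetoacetyl-CoA synthetase), RMI1, USP14, BPNT2 and GADD45G, with r of 0.94 to 0.92. These are 9 of the highest 10 of 6444 genes well above background on all arrays. The 8 arrays come from 4 cows and the profile holds the diet contrast as well, so r is a description. The 4 genes themselves had 0.96 (SQLE), 0.92 (FDPS), 0.91 (FDFT1) and 0.77 (INSIG1). Each of them is part of the mean profile, which raises its r, so these values cannot be set against those of other genes. The other pathway genes ran from -0.72 (NPC2) to 0.92 (MSMO1), with MVD at 0.82, CYP51A1 at 0.71, EBP at 0.07, GGPS1 at -0.40, HSD17B7 at -0.41 and NR1H3 at -0.45. SCD had a diet difference of -0.27, and the 10 genes lay between -0.33 and -0.12.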

How the data were processed

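RNA of rumen papillae was measured on 8 single-colour arrays, and samples were grouped by the diet and cow in their labels. The authors deposited, from Feature Extraction (version 10.7.3.1), the background-subtracted intensity and flags of single spots, not normalized between arrays (array build Btau 3.1). They also deposited a table of log2 values, quantile-normalized by the authors, which served as an alternative. Control spots and spots flagged as outliers (0 to 13 per array) were left out and no spot was saturated. Log2 intensities were quantile-normalized with limma 3.58.1 in R 4.3.3, spots of a probe were averaged, and no filter was set on dim probes. A probe counted as above background if all its spots did. Of 10176 probes with a RefSeq accession, 8297 were named through the RefSeq gene table (ARS-UCD 2.0). Positions are not given, since the builds differ.

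Diet, period and their interaction, as in the methods of the study, were fitted to each of the 21475 probes in limma (4 residual and 2.26 prior degrees of freedom), with Benjamini-Hochberg adjustment over all probes and 95% intervals from the moderated fit. The fit was tested on simulated data with independent arrays and no differences between cows, so that check does not cover the pairing. Calls needed both an unadjusted p under 0.05 and a change of 1.5-fold or more. Exact permutation tests used scipy 1.17.1, and tables and plots pandas 2.3.3 and matplotlib 3.10.9. The number of arrays limits the precision.

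The 7 genes, the pathway list and the marker lists were chosen with earlier results of these data known. The named genes are these, the other pathway genes above background on all arrays, and the 10 genes outside them with the highest Pearson r to the mean deviation of the 4 measured ones, except that some of them are not reported here. The arrays of one cow are paired by the labels. Deviations from the diet means over 16030 probes above background on all arrays had an r of 0.285, 0.298, 0.467 and 0.113 between the arrays of cows 1 to 4, and of -0.237 to 0.185 between cows. The arrays of one cow also shared their place on the slide, so this r holds cow and place together.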

Additional observations from a re-analysis of the deposited data

Results flagged for a closer look

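Among 50 groups of 4 arrays (25 genes on each diet), 2 had an array far from the others, where chance gives about 1 in 20. PMVK, phosphomevalonate kinase, on HC was 13.34 in cow 3 against 14.07 to 14.13 in the other cows, a gap that took 0.924 of the range. HSD17B7, a sterol reductase, on HC was 10.71 in cow 2 against 10.89 to 10.91, a gap of 0.882 of the range.

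The diet by period interaction passed an unadjusted p under 0.05 in limma for 2 of the 25 genes, and this term is also the contrast of cows 1 and 2 against cows 3 and 4. The unadjusted p was 0.0375 for MVD and 0.0203 for HSD17B7, with 5% of all probes higher and 5.16% lower in cows 1 and 2 at that threshold, and 0 of the 25 had an adjusted p under 0.05 for this term.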

How the results depend on the processing

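The 4 genes were lower on HC under all 9 other settings of scaling, background, filter, table, model and probe choice, with INSIG1 at -0.59 to -0.57. In this balanced design the filter, the model settings and the probe choice could not change these differences. Only 75th percentile scaling, normexp and the deposited table could, with INSIG1 at -0.58, -0.59 and -0.57. As each of the 8 arrays was left out INSIG1 ranged from -0.73 to -0.41, whereas FDPS rose above 0 in 3 cases. Each such fit left the pair of 1 cow incomplete and had no cow term, so these ranges hold differences between cows too. INSIG1 passed the fold of 1.5 under 5 of these 17 settings, normexp (-0.59) and 4 with an array left out. The median of the 4 genes was -0.36 to -0.11 with an array left out, and the counts of 0 for period, cow pair and the other pathway genes stayed at 0. The count of 198 probes for diet was 8 with normexp background correction (offset 50, on median spot signals, since mean ones were not used here), 55 with probes above background on all arrays, 105 without moderation, 415 in the deposited table and 239 to 404 with an array left out. For period the 828 became 32 with normexp and 326 with the filter, and for cow pair the 629 became 101 with normexp, 365 with the filter, 360 without moderation and 581 to 957 with an array left out. With cow as a replicate block there were 276 probes for diet and 962 for period, and the 4 genes (period) and the 21 other pathway genes (diet and period) still had 0 calls. Under that block 2 of the 21 had an unadjusted p under 0.05 for diet, CYP51A1 and MSMO1, and 2 for period, against 1 each without it. The share of all probes under 0.05 in the blocked fit was not counted, so these counts cannot be set against a background. The 9 probes with an adjusted p under 0.05 for period became 144 with 75th percentile scaling, 174 when cow was a random effect, and 0 with normexp, the fixed block or any array left out, and the deposited table had 5 for diet, where the scanner values had 0. The causes were not tested.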
